A study of Mus musculus with 9 samples.

Results

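Expression of 10 cartilage genes was followed in ST2 cells, a mouse stromal line derived from bone marrow that is used as a model of mesenchymal progenitors and is labelled here as a wild-type mesenchymal stem cell of bone. The set consisted of Col2a1, Cnmd, Ucma, Acan, Sox9, Sox5, Sox6, Comp, Matn3 and Hapln1, 10 of the 54532 genes in the count table, and 7 of them were among the 14004 genes with enough reads to be tested. It was selected on the measured values, because Cnmd, Ucma and Col2a1 fell strongly with rhWnt3a, and the remaining 7 genes were added as known cartilage genes. For that reason the difference between rhWnt3a and vehicle is given for all 10 as a description without a test, and Cnmd, Ucma and Col2a1 are not tested in any comparison.

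The 9 libraries were made from cells collected at 72 h, with 3 libraries of vehicle, 3 of 50 ng/ml rhWnt3a (recombinant human Wnt3a, a ligand of the Wnt pathway), and 3 of rhWnt3a with 20 µM OSMI, an inhibitor of the enzyme OGT that attaches O-GlcNAc sugars to proteins. The titles of the third group name rhWnt3a and OSMI together, while its treatment label and the sentence on RNA sequencing in the methods give OSMI without rhWnt3a. The results text of the study describes the group as receiving both, and it was taken here as rhWnt3a with OSMI, with a rhWnt3a dose that its label does not give. No group received OSMI without rhWnt3a, so the third group differs from vehicle by both agents. All cells came from 1 line, and the labels do not say whether libraries of a group came from separate cultures, although a figure legend of the study calls them biological replicates, so the p-values measure the spread between these libraries.

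Cartilage is made by chondrocytes, whose matrix is a mesh of type II collagen filled with the proteoglycan aggrecan, which link protein ties to hyaluronan. SOX9 is the transcription factor required for chondrocyte fate, and SOX5 and SOX6 work beside it on the genes of this matrix. Bone marrow stromal progenitors can give rise to cartilage, bone or fat cells, and Wnt signalling through β-catenin is known to favour bone over cartilage in such cells.

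The 2 genes with the steepest falls were Cnmd and Ucma, and the promoter of each is shown because their reads nearly vanished in 6 of the 9 libraries. Each sequence runs 5′ to 3′ on the strand of the gene, from 250 bases before the start of the transcript to 50 bases from it, in RefSeq for GRCm38.p6. The Cnmd window lies at chr14:79662134-79662433 on the minus strand and the Ucma window at chr2:4975872-4976171 on the plus strand, and capitals mark CG dinucleotides. The third sequence is 1 of 6 Sox6 windows, at chr7:115995037-115995336 on the minus strand, and was chosen as the window of this gene set with the most matches to 4 short motifs, which are in capitals.
Cnmd: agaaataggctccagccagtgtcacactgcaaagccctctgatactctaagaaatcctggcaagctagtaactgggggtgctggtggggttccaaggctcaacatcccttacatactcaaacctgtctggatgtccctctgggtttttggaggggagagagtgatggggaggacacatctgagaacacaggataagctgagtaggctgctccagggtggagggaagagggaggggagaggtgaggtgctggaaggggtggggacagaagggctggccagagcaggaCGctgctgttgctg
Ucma: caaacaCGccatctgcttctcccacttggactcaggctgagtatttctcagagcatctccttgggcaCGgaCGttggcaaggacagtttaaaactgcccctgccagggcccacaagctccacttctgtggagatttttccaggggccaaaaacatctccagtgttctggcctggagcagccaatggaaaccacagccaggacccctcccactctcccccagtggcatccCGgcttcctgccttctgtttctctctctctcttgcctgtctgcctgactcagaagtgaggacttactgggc
Sox6: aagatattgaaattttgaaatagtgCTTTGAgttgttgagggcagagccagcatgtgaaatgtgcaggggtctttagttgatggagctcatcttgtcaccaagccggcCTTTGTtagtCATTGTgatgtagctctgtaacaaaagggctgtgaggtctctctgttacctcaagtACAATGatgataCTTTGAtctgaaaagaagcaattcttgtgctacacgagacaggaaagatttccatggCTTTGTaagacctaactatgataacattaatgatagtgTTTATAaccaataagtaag

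The Cnmd window held 1 CG, and 14.1% of 32851 RefSeq promoter windows of this length held as few or fewer. Ucma had 4, which 38.0% of windows did not exceed, while the Acan window held 31, against a median of 7. The letters searched on both strands were ACAAAG and ACAATG, which SOX proteins bind, CTTTGA, the core bound by TCF/LEF proteins of the Wnt pathway, and TATAAA, the TATA box. CTTTGA read on the opposite strand shares the letters CAAAG with ACAAAG, but its first letter differs, so no stretch matches both. They occurred in 18.7%, 12.6%, 16.0% and 13.6% of all windows, respectively. Of the 10 genes, 7 had at least 1 window, 12 windows in all, and the 5 windows of Acan, Cnmd, Hapln1, Matn3 and Ucma held none of the 4 motifs. The Sox6 window shown held ACAAAG at positions -142 and -7 from the start, ACAATG at -132 and -76, CTTTGA at -225 and -64, and TATAAA at 31. A match is a run of letters and not a site shown to be bound, and the counts per gene do not tell which of the 6 Sox6 starts was in use.

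The libraries held 16135898 to 17583945 counts, and 3 counts, taken as the lowest level told from none, corresponded to 0.17 to 0.191 CPM (counts divided by the TMM-scaled library total and expressed on the usual CPM scale). In each group 1 library stood apart from the remaining pair over all tested genes. These were vehicle replicate 3, rhWnt3a replicate 2 and rhWnt3a with OSMI replicate 3, with mean squared log2 differences of 0.373 to 0.454 from their group, against 0.111 to 0.119 within the pairs. Vehicle replicate 3 was the lowest of its group for 8 of the 9 cartilage genes that had vehicle reads, all but Sox5, and the third library of rhWnt3a with OSMI was the highest of its group for 5.

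The labelled cell type was compared with marker genes. A marker is said to be above 3 counts where any library exceeded that number. All 9 stromal markers did, but Thy1 only in the second OSMI library, with 4 reads against 0 to 2 elsewhere. The summed stromal level was 18100 to 24700 CPM in vehicle, 14900 to 18000 with rhWnt3a and 8240 to 16000 with rhWnt3a and OSMI. Adipocyte markers summed to 64.9 to 83.2, 33 to 43.8 and 42 to 44.9 CPM, with 4 of 7 above 3 counts and Cidec at 0. Osteoblast markers summed to 26.7 to 32.7, 21.2 to 32.4 and 28.5 to 42.5 CPM, with 4 of 6 above 3 counts. Tendon markers summed to 18.1 to 22.3, 17.3 to 22.1 and 9.79 to 11.5 CPM, with 2 of 4 above 3 counts and Mkx and Scx making up nearly all of it. Muscle markers (2 of 5 above 3 counts, Myod1 at 0), hematopoietic markers (3 of 5) and endothelial markers (2 of 4) summed to at most 11 CPM in any library. Muscle sums were 3.66 to 5.88, 2.98 to 3.58 and 0.544 to 1.03 CPM in the 3 groups, and hematopoietic sums 6.6 to 11, 2.69 to 3.04 and 0.991 to 4.6 CPM. The stromal, adipocyte, muscle and hematopoietic sums were all lower with rhWnt3a than with vehicle, without overlap. The margin was narrow for the stromal sums (18100 against 18000 CPM) and the muscle sums (3.66 against 3.58 CPM). Vehicle and rhWnt3a libraries overlapped for Col1a1 and Col1a2, while Cxcl12 fell from 1320 to 266 CPM. Des was at 3.02 and 3.24 CPM, and Acta1 at 1.63 and 0.121 CPM. The part of these markers in the results on cartilage genes was not tested. In RNA from whole cultures, fewer cells of a type and less RNA per cell cannot be told apart.

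Summed over the 10 genes, the level was 447 to 610 CPM in vehicle, 98.9 to 128 with rhWnt3a and 86.8 to 139 with rhWnt3a and OSMI. In 9 of the 10 genes every rhWnt3a library was below every vehicle library, and Matn3, with no vehicle reads, was the exception. Of all 14004 tested genes, 14.2% were separated downward in this way, and because the set was picked on this comparison the count is a description only. No gene of the set was higher with rhWnt3a in the sense of separated groups.

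**Figure D1:**
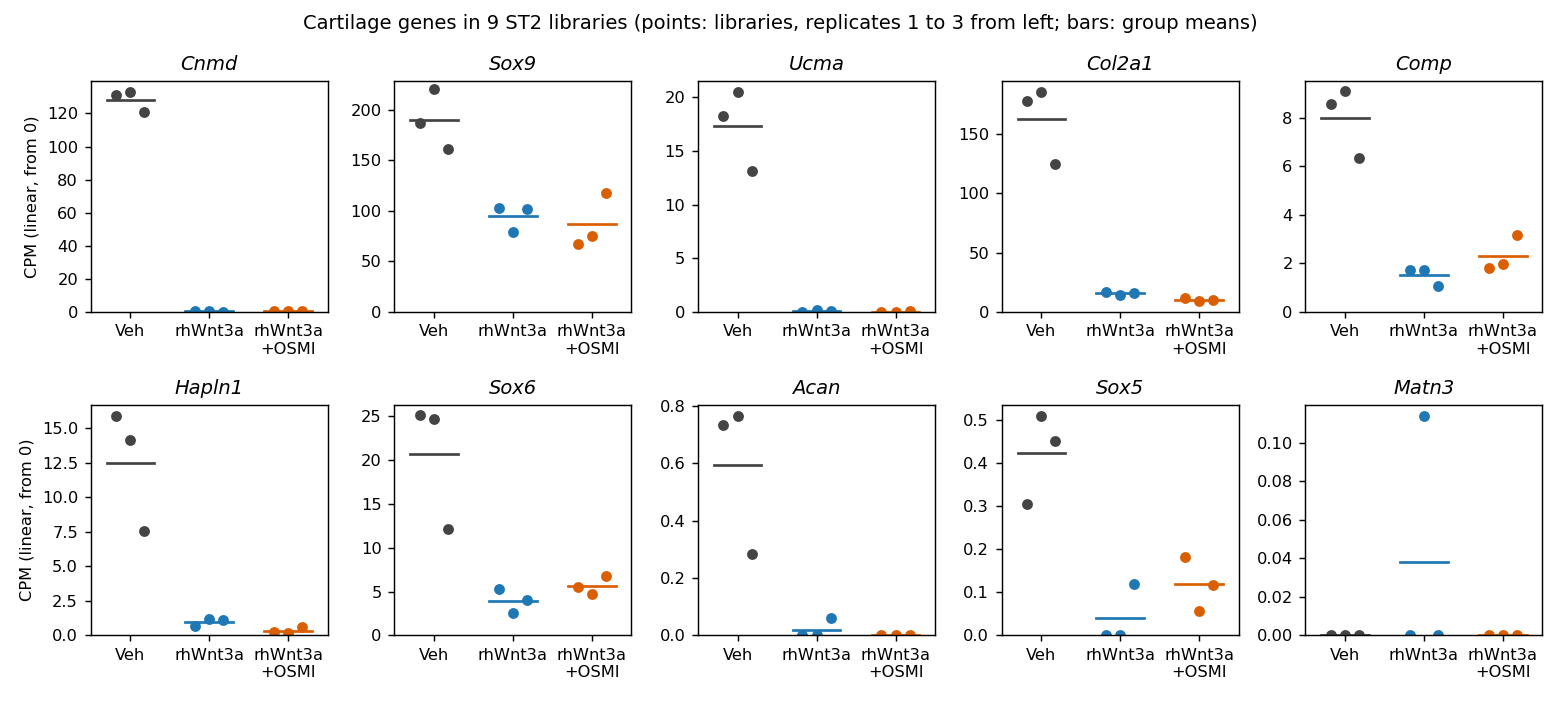
Level of each of the 10 cartilage genes in CPM on linear axes starting at 0, with 1 point per library (replicates 1 to 3 from left) and a bar at the mean of the 3 libraries of each group. Vehicle points lie above all others in 9 panels, Matn3 has reads in a single rhWnt3a library, and the scale differs between panels.

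Among the structural genes, Col2a1 (ENSMUSG00000022483, chr15:97975602-98004695, minus strand, GRCm38) encodes the chain of type II collagen, the main fibril of cartilage. Its level was 178, 186 and 125 CPM in vehicle, 16.6, 13.9 and 15.7 CPM with rhWnt3a, and 11.5, 9.18 and 9.79 CPM with rhWnt3a and OSMI. The 3 groups did not overlap, and the libraries with both agents were the lowest. From a mean of 163 ± 33.1 CPM (SD, n = 3) in vehicle it fell to 15.4 ± 1.37 with rhWnt3a, a log2 fold change of -3.40 ± 0.19 (SE of the edgeR fit), or 10.5-fold. With both agents the mean was 10.2 ± 1.23 CPM, a log2 difference of -0.60 ± 0.18 from rhWnt3a and of -4.00 ± 0.19 from vehicle.

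Cnmd (ENSMUSG00000022025, chr14:79637690-79662170, minus strand) encodes chondromodulin, a membrane-anchored protein of avascular cartilage that inhibits the growth of blood vessels. It had 131, 133 and 121 CPM in vehicle, 0.669, 0.455 and 0 CPM with rhWnt3a, and 0.665, 0.574 and 0.35 CPM with rhWnt3a and OSMI. Thus 2089 to 2147 reads per vehicle library stood against 11, 8 and 0 reads with rhWnt3a and 11, 10 and 6 with both agents, and these last groups overlapped. The mean fell from 128 ± 6.22 CPM to 0.375 ± 0.342, which is 342-fold and a log2 fold change of -8.39 ± 0.47. With so few treated reads this value was -9.03 without rhWnt3a library 1 and -7.82 without rhWnt3a library 3. The level with both agents was 0.53 ± 0.162 CPM, 243-fold under vehicle, and differed from rhWnt3a by 0.49 ± 0.63 on the log2 scale. That difference was -0.08 without rhWnt3a library 3 and 1.17 without rhWnt3a library 1.

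Ucma (ENSMUSG00000026668, chr2:4976122-4985748, plus strand) encodes a small secreted protein of the upper growth plate that carries γ-carboxylated glutamates. Vehicle libraries had 300, 321 and 232 reads (18.3, 20.5 and 13.1 CPM, mean 17.3 ± 3.77). The rhWnt3a libraries had 0, 2 and 1 reads and those with both agents 0, 0 and 1. Both treated groups were at or under the lowest level told from none, so no difference between them can be given. The ratio of vehicle to rhWnt3a was 290, with an exact 95% counting interval of 98.9 to 1410, and that of vehicle to rhWnt3a with OSMI was 876 (157 to 34700). Such intervals cover counting error only.

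Hapln1 (ENSMUSG00000021613, chr13:89539796-89611652, plus strand) encodes link protein, which fastens aggrecan to hyaluronan. Its level was 15.9, 14.1 and 7.52 CPM in vehicle, 0.669, 1.19 and 1.08 CPM with rhWnt3a, and 0.242, 0.172 and 0.641 CPM with rhWnt3a and OSMI. The groups were again fully separated, with both agents lowest, although the treated libraries held only 3 to 21 reads. The log2 fold change with rhWnt3a was -3.66 ± 0.41. Against rhWnt3a the group with OSMI was lower by a log2 difference of -1.46 ± 0.54, which did not pass the edgeR quasi-likelihood test (two-sided, Benjamini-Hochberg adjusted p = 0.146 over all tested genes). Without the 3 libraries that stood apart that difference was -2.05 with an edgeR adjusted p of 0.00671. That fit was added after seeing the data and kept the closest pair of each group. The choice narrows the spread, so its p is no support. Against vehicle Hapln1 was called in the main fit, at -5.12 ± 0.47 (edgeR adjusted p = 1.27e-04). The predicted gene Gm8546 overlaps Hapln1 and had 0 to 8 reads, and the strand setting of the counting is not given in the sources used here.

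Comp (ENSMUSG00000031849, chr8:70373558-70382066, plus strand) encodes a thrombospondin of cartilage and tendon matrix that binds collagen fibrils. Levels were 8.55, 9.11 and 6.33 CPM in vehicle, 1.7, 1.71 and 1.08 CPM with rhWnt3a, and 1.81, 1.95 and 3.15 CPM with rhWnt3a and OSMI. Every library with OSMI was above every rhWnt3a library, by a narrow margin, and both groups were below vehicle. The log2 fold change with rhWnt3a was -2.41 ± 0.30. The difference between the combination and rhWnt3a, 0.62 ± 0.31 on the log2 scale, did not pass the test (edgeR adjusted p = 0.258), whereas the difference between the combination and vehicle, -1.79 ± 0.28, did (edgeR adjusted p = 0.00247).

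Acan and Matn3 were barely measured. Acan (ENSMUSG00000030607, chr7:79053483-79115099, plus strand), the gene of aggrecan, had 12, 12 and 5 reads in vehicle, 0, 0 and 1 with rhWnt3a, and 0 in each library with both agents. The groups did not overlap against vehicle, at a vehicle mean of only 0.593 ± 0.269 CPM. Vehicle was 29.6 times rhWnt3a (counting interval 4.9 to 1210) and at least 9.93-fold higher than rhWnt3a with OSMI, taking 3 counts over the group as the floor. Matn3 (ENSMUSG00000020583, chr12:8947929-8972028, plus strand), the gene of the adaptor protein matrilin-3, had 2 reads in the second rhWnt3a library and 0 in the other 8. Neither gene had enough reads for a test.

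The transcription factor Sox9 (ENSMUSG00000000567, chr11:112782224-112787760, plus strand) had a smaller fitted change with rhWnt3a than any other tested gene of the set. It had 187, 221 and 161 CPM in vehicle, 103, 78.9 and 102 CPM with rhWnt3a, and 66.8, 74.8 and 118 CPM with rhWnt3a and OSMI. Both treated groups were below vehicle and overlapped each other, and the highest of the treated libraries was the one with OSMI that stood apart. The mean went from 189 ± 30.0 CPM in vehicle to 94.6 ± 13.6 with rhWnt3a, a log2 fold change of -1.0 ± 0.22. Between rhWnt3a and the combination (86.5 ± 27.5 CPM) the log2 difference was -0.13 ± 0.22 and did not pass the test (edgeR adjusted p = 0.751). It was 0.07 without the first OSMI library and -0.54 without the 3 libraries that stood apart, and in that last fit the edgeR adjusted p was 5.16e-05. As for Hapln1, that fit kept the closest pair of each group, so its p is no support. The difference from vehicle, -1.13 ± 0.23, was called (edgeR adjusted p = 0.00851), with an adjusted p of 0.0521 when the second OSMI library was left out.

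Sox6 (ENSMUSG00000051910, chr7:115470872-116038796, minus strand), a SOX protein without an activation domain of its own that partners SOX9, had 25.2, 24.7 and 12.2 CPM in vehicle, 5.29, 2.56 and 4.07 CPM with rhWnt3a, and 5.56, 4.71 and 6.76 CPM with rhWnt3a and OSMI. Vehicle was the highest group and the treated groups overlapped. Its log2 fold change with rhWnt3a was -2.38 ± 0.34. With OSMI it was 0.52 ± 0.34 against rhWnt3a, which was not called (edgeR adjusted p = 0.384), and -1.86 ± 0.33 against vehicle, which was (edgeR adjusted p = 0.00446). Sox5 (ENSMUSG00000041540, chr6:143828425-144781977, minus strand), its close relative, had 5, 8 and 8 reads in vehicle, 0, 0 and 2 with rhWnt3a, and 3, 1 and 2 with both agents. Vehicle lay above both groups, and was 10.7 times rhWnt3a with a counting interval of 2.62 to 94.2, but the gene was left untested at this depth.

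**Figure D2:**
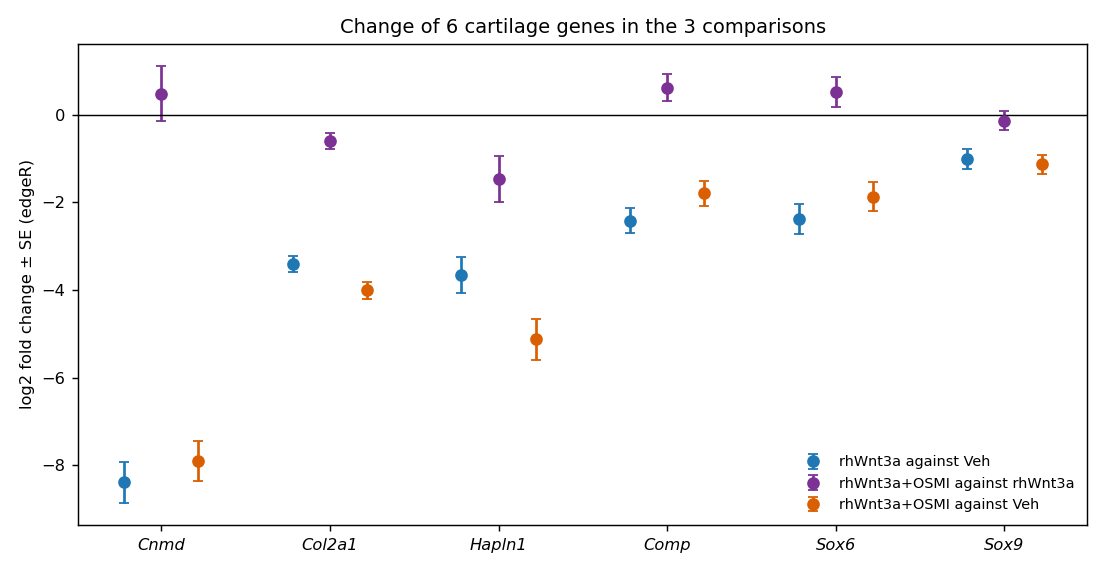
Log2 fold change with its SE from the edgeR fit for 6 cartilage genes in the 3 comparisons. In rhWnt3a against vehicle and in rhWnt3a with OSMI against vehicle all 6 lie under 0, from -8.39 for Cnmd to -1.0 for Sox9, whereas in rhWnt3a with OSMI against rhWnt3a the values run from -1.46 for Hapln1 to 0.62 for Comp.

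With OSMI added to rhWnt3a, the cartilage genes that had vehicle reads stayed below vehicle. Of the 4 tested genes that were not picked on their values (Sox9, Sox6, Comp and Hapln1), 0 were called between rhWnt3a with OSMI and rhWnt3a, by edgeR and by DESeq2. Hapln1 was under an unadjusted edgeR p of 0.05, and was called without a filter on low counts (edgeR adjusted p = 0.034). Over all tested genes 3.05% were called lower and 1.69% higher in this comparison, so 0 of 4 is near the background. Counting all 10 genes, 2 were separated downward (Col2a1 and Hapln1), 1 upward (Comp) and 7 overlapped, against 17% of tested genes separated downward and 16.7% upward. Relative to vehicle, rhWnt3a with OSMI was called lower in 4 of these 4 genes, beside 9.34% of tested genes called lower, 4.84% called higher and 19.5% separated downward. Both comparisons use rhWnt3a or vehicle libraries that also entered the choice of the set, so they are not independent of it.

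Per length, the order of the genes in vehicle was Cnmd, Sox9, Ucma, Col2a1, Comp, Hapln1, Sox6, Acan, Sox5 and Matn3. Levels per length (RPKM, CPM divided by the gene length in kilobases) averaged 69.7 for Cnmd, 45.8 for Sox9, 19.6 for Ucma and 17.7 for Col2a1. Comp, Hapln1 and Sox6 had 2.7, 2.12 and 1.4 RPKM, and Acan and Sox5 were below 0.11 in every library. Neighbours whose libraries overlapped were Ucma and Col2a1, Comp and Hapln1, and Hapln1 and Sox6. With rhWnt3a Sox9 came first at 22.9 RPKM, followed by Col2a1 at 1.67, Comp at 0.504, Sox6 at 0.268, Cnmd at 0.203 and Hapln1 at 0.166, and the libraries of these last 3 overlapped. The combination gave 20.9 RPKM for Sox9, 1.1 for Col2a1, 0.777 for Comp, 0.383 for Sox6, 0.287 for Cnmd and 0.0596 for Hapln1, with overlap between Col2a1 and Comp and between Sox6 and Cnmd.

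The share of each gene in the summed RPKM of the set is a description, because the genes that fell most were picked for it. Cnmd contributed 41% to 47.9% of the sum in vehicle, and 0% to 1.29% with rhWnt3a. Sox9 contributed 27.6% to 30.3% in vehicle, 86.9% to 90.4% with rhWnt3a and 85.9% to 90.6% with both agents, while its own level was lower in both treated groups. Comp contributed 1.55% to 1.76%, 1.33% to 2.62% and 3.22% to 3.37%. Col2a1 went from 9.87% to 11.8% in vehicle to 6.25% to 6.87% and 3.37% to 6.65%.

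**Figure D3:**
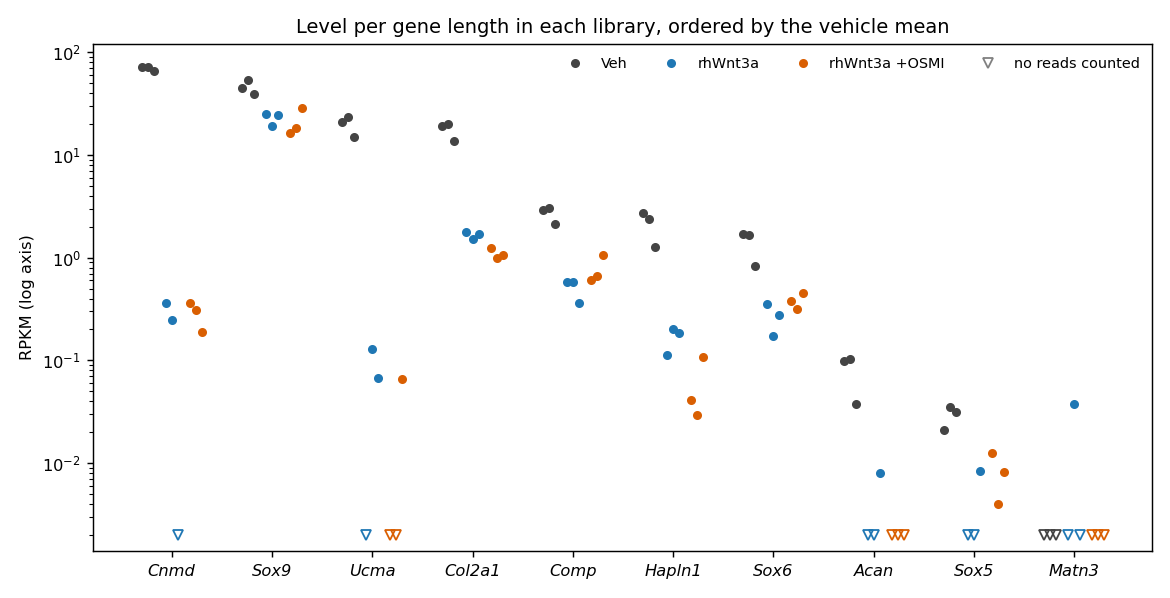
RPKM of the 10 cartilage genes in each library on a log axis, ordered by the vehicle mean, with triangles at the foot for libraries without reads. Sox9 is the only gene above 10 RPKM in all 9 libraries, while Cnmd drops from first place in vehicle to under 1 RPKM in the 6 treated libraries.

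Other genes of cartilage were read from 6 lists that hold none of the 10 genes, 72 genes in all, of which 45 were tested. With rhWnt3a 12 were called lower and 5 higher, beside 5.86% and 2.92% of all tested genes, and their median log2 fold change was -0.19 against 0.04 over all genes. Between the combination and rhWnt3a 11 were called lower and 2 higher, beside 3.05% and 1.69% of all tested genes (median -0.72 against -0.02 over all genes). Between the combination and vehicle 19 were lower and 1 higher, beside 9.34% and 4.84% (median -0.55 against -0.01). These shares are the background for the counts by list that follow, and most lists are too short to be set against them. The lists were chosen with earlier results of these data known, so an excess over the background can come from that choice and is a description only. Among the genes called lower, Col9a1, Scrg1, Matn4, Chst3 and Col10a1 passed the filter on low counts only through vehicle. Their lower calls against vehicle stay in the counts here and by list, but are no support for a fall. Of the called genes, Col9a1, Col9a3, Scrg1, Fmod, Matn4, Bmpr1b, Fgfr3, Chst3 and Col10a1 were not tested where every library had to hold at least 10 counts. Of the 34 genes tested under that rule, 7 were called lower and 5 higher with rhWnt3a. The counts were 10 and 2 between the combination and rhWnt3a, and 11 and 1 between the combination and vehicle. Over all 12005 genes tested under it, the same counts were 637 and 339, 364 and 236, and 1016 and 644.

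The list of further cartilage matrix genes had 18 members, and the 9 that were tested gave 5 lower calls with rhWnt3a and none higher. Col9a1 and Scrg1, among the lower calls in both comparisons with vehicle, passed the filter only through vehicle, so their calls are no support. The largest level belonged to Col11a1, the α1 chain of the type XI collagen that nucleates cartilage fibrils, at 3890, 3940 and 2720 CPM in vehicle, 705, 647 and 734 with rhWnt3a and 442, 459 and 1140 with OSMI added. Its treated groups overlapped, and the fall with rhWnt3a was -2.34 ± 0.36 on the log2 scale (edgeR adjusted p = 0.00259). Scrg1, a small secreted protein first described in scrapie-infected brain and found in chondrogenesis, had 81, 95 and 49 reads in vehicle, 1 in each rhWnt3a library and 0, 2 and 0 with OSMI added. Vehicle was 76.5 times rhWnt3a, with a counting interval of 25.8 to 374. It passed the filter on low counts only through vehicle and is given as a description.

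Col9a1, a chain of the type IX collagen that coats type II fibrils, had a mean of 6.49 CPM in vehicle and 0.604 with rhWnt3a (100, 99 and 125 reads against 6, 16 and 9). Like Scrg1 it passed the filter only through vehicle, and no p is given. Col27a1, a fibrillar collagen of growth cartilage, went from 17.6 to 4.45 CPM, a log2 fold change of -1.98 ± 0.36 (edgeR adjusted p = 0.00684). The fifth call, Col9a3 at -1.39 (edgeR adjusted p = 0.0453), is named after its value was seen and reached an adjusted p of up to 0.174 when 1 library was left out, being lost for each of the vehicle and rhWnt3a libraries and for the second OSMI library. Col11a2, the partner chain of Col11a1, was at 7.81, 7.84 and 6.59 CPM in the 3 groups and was not called. In the combination against rhWnt3a none of the 9 was called by edgeR, and against vehicle 5 were lower, among them Fmod, the collagen-binding fibromodulin, at -2.72 ± 0.48 (edgeR adjusted p = 0.0045).

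Of 17 relatives of the 10 genes 7 were tested, and 3 were called lower and 1 higher with rhWnt3a. The counts were 3 lower and 1 higher between the combination and rhWnt3a, and 4 lower and 1 higher between the combination and vehicle. Matn4, among the lower calls in both comparisons with vehicle, passed the filter only through vehicle. Of the thrombospondins, the family of Comp, Thbs1 fell with rhWnt3a by 1.51 on the log2 scale (edgeR adjusted p = 0.00185) from 604 to 212 CPM, and Thbs2 rose by 2.92 (edgeR adjusted p = 4.24e-05) from 60.9 to 461 CPM. The libraries of Thbs2 were 69.6, 62.8 and 50.3 CPM in vehicle, 503, 396 and 484 with rhWnt3a, and 150, 139 and 214 with OSMI added, 3 groups that did not overlap. Both genes were nearer vehicle when OSMI was added, Thbs1 at +1.24 (edgeR adjusted p = 0.0125, and 0.0522 without the third rhWnt3a library) and Thbs2 at -1.46 (edgeR adjusted p = 0.00497) against rhWnt3a. Thbs3 was called lower in the combination, at -0.87 against rhWnt3a and -0.81 against vehicle, with edgeR adjusted p of up to 0.135 and 0.094 when 1 library was left out, the first call being lost for every library but the third of vehicle and of OSMI, the second for libraries 1 and 2 of vehicle and of OSMI.

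Of the matrilins, the family of Matn3, Matn2 fell from 642 to 239 CPM with rhWnt3a (log2 fold change -1.43 ± 0.14, edgeR adjusted p = 2.11e-04). Matn4 went from 6.03 to 0.353 CPM, and as it passed the filter only through vehicle (137, 85 and 76 reads against 6, 8 and 4) it is given without a p. Matn1 had no reads. Vcan, the gene of versican and a relative of Acan, followed another course, with 420, 406 and 329 CPM in vehicle, 549, 308 and 533 with rhWnt3a, and 64.9, 69.0 and 129 with OSMI added. The vehicle and rhWnt3a libraries overlapped and those with OSMI were below both, at -2.41 ± 0.31 against rhWnt3a (edgeR adjusted p = 0.00377) and -2.14 ± 0.31 against vehicle (edgeR adjusted p = 0.0015). Tnmd, the tendon relative of Cnmd, had at most 1 read, Sox8 at most 5, Sox10 at most 4 and Sox13 at most 2.

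Of 15 regulators of cartilage formation 11 were tested, and 1 was called lower with rhWnt3a, 2 lower and 1 higher between the combination and rhWnt3a, and 3 lower between the combination and vehicle. A single call of 11 is near the background of 5.86%. The call with rhWnt3a was the BMP receptor gene Bmpr1b, which went from 2.60 to 1.03 CPM and on to 0.234 CPM with OSMI added. Its falls of 1.33 with rhWnt3a and 2.10 from rhWnt3a to the combination had edgeR adjusted p of 0.0242 and 0.0184, which reached 0.0991 and 0.0885 when 1 library was left out. The first call was lost without vehicle library 1 or 2 or any rhWnt3a library, and the second without rhWnt3a library 1 or 3 or OSMI library 1 or 2. Scx, the transcription factor of tendon and enthesis progenitors, had 10.2, 10.6 and 15.2 CPM in vehicle, 10.2, 13.2 and 10.6 with rhWnt3a, and 3.93, 3.5 and 2.51 with OSMI added. The OSMI libraries were the lowest, at -1.77 ± 0.24 against rhWnt3a (edgeR adjusted p = 0.00449). Arid5b, a chromatin cofactor of SOX9, was higher with OSMI than with rhWnt3a alone by 1.20 (edgeR adjusted p = 0.0305, and up to 0.0897 when 1 library was left out), a call lost for every library but vehicle 1 and vehicle 3. Fgfr3, a receptor that restrains growth plate chondrocytes, was called in the comparison of the combination with vehicle, at -2.30 with an edgeR adjusted p of 0.0289 that reached 0.122 when library 1 or 2 of vehicle or of OSMI was left out.

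Enzymes that build and sulfate the chains of aggrecan gave 3 lower calls of 6 tested with rhWnt3a, 2 between the combination and rhWnt3a and 3 between the combination and vehicle, and none higher. Csgalnact1, which starts chondroitin chains, had 25.3, 27.5 and 35.2 CPM in vehicle, 14.3, 13.8 and 17.0 with rhWnt3a, and 5.2, 4.42 and 5.59 with OSMI added. The groups did not overlap, and each step downward was called, at -0.97 ± 0.17 (edgeR adjusted p = 0.0059) and -1.57 ± 0.18 (edgeR adjusted p = 0.00208). Papss2, which makes the sulfate donor, was at 31.5, 17.5 and 9.7 CPM, with steps of -0.84 and -0.85 whose edgeR adjusted p of 0.0105 and 0.0229 reached 0.0556 and 0.101 when 1 library was left out. The first step lost its call without vehicle library 1 or 2, and the second without vehicle library 2, any rhWnt3a library, or OSMI library 1 or 2. Chst3, a chondroitin sulfotransferase, was at 4.45, 0.499 and 0.275 CPM, and passed the filter only through vehicle, so that no p is given.

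Of 9 genes of late, hypertrophic cartilage 6 were tested, and 1 was called higher with rhWnt3a, 1 lower between the combination and rhWnt3a, and 2 lower between the combination and vehicle. Both single calls were of Mmp13. This gene, of a collagenase that cleaves type II collagen, had 82.3, 85.9 and 131 CPM in vehicle, 280, 328 and 295 with rhWnt3a, and 72.9, 62.8 and 85.1 with OSMI added. The rhWnt3a libraries were above both groups, which overlapped, with a log2 fold change of 1.59 ± 0.20 (edgeR adjusted p = 8.6e-04), and with OSMI a difference of -2.03 ± 0.20 from rhWnt3a (edgeR adjusted p = 0.00149). Col10a1, the collagen of hypertrophic cartilage, was below 1.2 CPM in every library, and with Spp1 (osteopontin) it was called lower in the combination against vehicle. The Spp1 difference was -1.46 (edgeR adjusted p = 0.00459) and Col10a1, with 14 to 18 reads in vehicle and 0 to 5 in the other libraries, passed the filter only through vehicle and is given without a p.

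All 6 genes of matrix proteases were tested, and 3 were called higher with rhWnt3a, 3 lower between the combination and rhWnt3a, and 2 lower between the combination and vehicle. Mmp3, stromelysin, had 2.93, 2.8 and 3.96 CPM in vehicle, 11.9, 16.8 and 15.8 with rhWnt3a, and 4.41, 2.75 and 2.97 with OSMI added. The rhWnt3a libraries stood above the others, at 2.19 ± 0.25 from vehicle (edgeR adjusted p = 4.51e-04) and with the combination at -2.13 ± 0.24 from rhWnt3a (edgeR adjusted p = 0.00208). Adamts5, an aggrecanase, was higher with rhWnt3a by 0.75 and the serine protease gene Htra1 by 0.70, with edgeR adjusted p of 0.0313 and 0.0356 that reached 0.138 and 0.163 when 1 library was left out. Adamts5 lost its call without any vehicle library, rhWnt3a library 1 or 3, or OSMI library 1, and Htra1 without every library but the third of vehicle and of OSMI. Htra1 was at 87.7, 142 and 56.9 CPM in the 3 groups and its difference of -1.32 between the combination and rhWnt3a (edgeR adjusted p = 0.00452) stayed called whichever library was left out. Its call against vehicle, at -0.62 (edgeR adjusted p = 0.0404), reached 0.157 when 1 library was left out and was lost for every library but rhWnt3a 2 and the third of OSMI. Adamts4, another aggrecanase, was at 121, 96.8 and 24.7 CPM, called at -1.97 between the combination and rhWnt3a (edgeR adjusted p = 0.0135, up to 0.0755 without rhWnt3a library 1 or 3 or OSMI library 1 or 2).

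**Figure D4:**
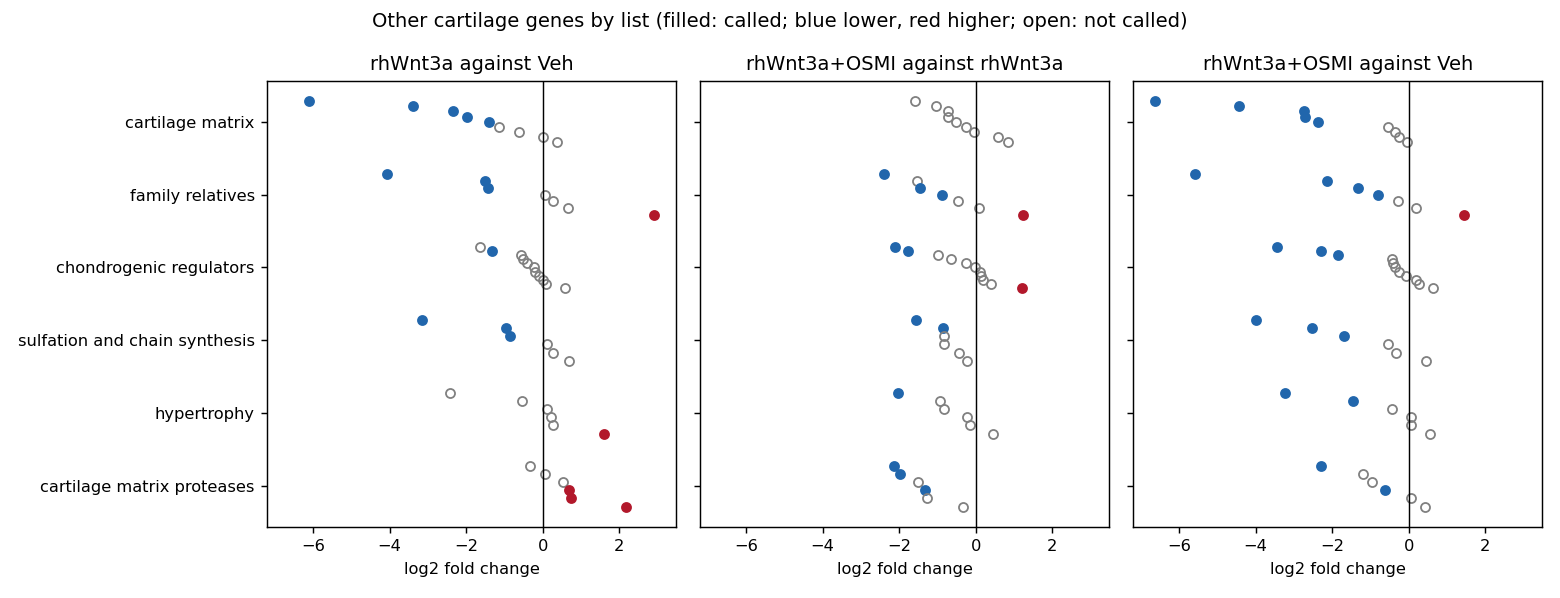
Log2 fold change of each tested gene of the 6 lists of other cartilage genes in the 3 comparisons, with filled points for called genes (blue lower, red higher) and open points for the rest. The matrix list has 5 blue points with rhWnt3a, 0 when OSMI is added to rhWnt3a and 5 against vehicle. The protease list has 3 red points with rhWnt3a and 3 blue points when OSMI is added. Blue points of Col9a1, Scrg1, Matn4, Chst3 and Col10a1 belong to genes that passed the filter only through vehicle.

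Tested genes outside the set and above a minimum average level were searched for those that followed Col2a1 or Sox9 over the 9 libraries. For Col2a1 the closest, by Pearson r of log2 CPM, were P2rx4 (0.995), Cdkl2 (0.993), Arsg (0.992), Vamp5 (0.991) and Chadl (0.991). Chadl, which encodes a chondroadherin-like protein of cartilage matrix, went from 18.7 ± 0.948 CPM in vehicle to 3.01 ± 0.501 with rhWnt3a and 2.1 ± 0.202 with OSMI added. P2rx4, an ATP-gated channel, went from 119 ± 2.86 to 62.7 ± 0.688 and 55.9 ± 1.6 CPM, a far smaller change than that of Col2a1. For Sox9 the closest genes were Thra (0.986), Rhbdf2 (0.982), Itga5 (0.981), Col11a1 (0.978) and Slc35f1 (0.977). These values describe 9 libraries that share 3 treatments and are given without a test.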

How the data were processed

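Polyadenylated RNA of ST2 cells was sequenced in 9 libraries. The authors deposited raw counts per gene, which the submitters' processing notes credit to CASAVA, fastp, HISAT2 2.0.5 and featureCounts 1.5.0-p3 on mm10, while the annotation and strand setting are not given in the sources used here. FPKM values deposited beside the counts were not used here. The 15 columns of the authors' own comparisons, which hold group means, log2 fold changes, p-values and adjusted p-values, were not used either. The cartilage genes, lists and markers were chosen with earlier results of these data known.

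Counts were analysed with edgeR 4.0.16 in R 4.3.3 (limma 3.58.1). Genes were kept by filterByExpr (minimum count 10, minimum total 15) and libraries scaled by TMM. All 9 libraries entered glmQLFit on 3 groups without covariates, and groups were compared by glmQLFTest (two-sided) with Benjamini-Hochberg adjustment over 14004 genes. Calls required an adjusted p under 0.05 together with an absolute log2 change above 0.5. The SE is the log2 fold change divided by the square root of F. RPKM used the gene lengths of the table. Where a group had 1 to 3 counts a ratio of sums with an exact 95% binomial interval was given. From each list up to 4 called genes per comparison were named by size of change, with the relatives Tnmd, Sox8, Sox10 and Sox13. For Col2a1 and Sox9 the 5 genes of highest Pearson r were named, among tested genes outside the set with average log2 CPM above 1. BLAST 2.17.0 found no other gene at least 97% identical to one of the 10 over 100 bases. Replicate numbers come from the titles, and same-numbered libraries did not deviate together (r from -0.49 to 0.439). Alternatives were RLE scaling, DESeq2 1.42.0, other filters, the 6 libraries of a comparison, a replicate block, a log2 limit of 1, leaving out each library, and, added after seeing the data, leaving out 3 libraries and the unadjusted p.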

Additional observations from a re-analysis of the deposited data

How the results depend on the processing

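Directions of the 7 tested cartilage genes against vehicle held under every alternative in which they were measured. For Cnmd, Ucma and Col2a1 this is no support, since they were picked for their fall in these libraries. Cnmd and Ucma also passed the filter only through vehicle. For the other 4 genes the direction with rhWnt3a is a description, as the set was picked on that comparison. Of the genes not picked on their values, 4 were tested in the main fit and 3 to 7 in the alternatives. Between rhWnt3a with OSMI and rhWnt3a the count called was 0, and 0 to 0 when any 1 library was left out. It was 1 of 7 without a filter on low counts, 1 of 4 by unadjusted p and 2 of 5 without the 3 libraries that stood apart. Leaving out those 3 keeps the closest pair of each group, which narrows the spread, so counts from that fit are no support here or below. Between rhWnt3a with OSMI and rhWnt3a, Sox9 turned from -0.13 to 0.065 without the first and 0.005 without the second OSMI library. It ran from -0.416 to 0.065 over all libraries left out. Cnmd, which has no test, turned there as well, from 0.49 to -0.08 without rhWnt3a replicate 3. Against vehicle the count of these genes was 4 of 4, and 3 to 5 over all alternatives, where the number tested also changed. It was 3 of 3 where every library had to hold at least 10 counts, and 5 of 7 without a filter on low counts. Without OSMI replicate 2 it was 4 of 5, as Sox9 lost its call (edgeR adjusted p = 0.0521). That count and each count of 5 include a call of Acan or Sox5. These genes had 5 to 12 reads in vehicle libraries and 0 to 3 in treated ones. Where a filter was used they could pass it only through vehicle, so such a call is no support. For the other cartilage genes, 17 calls with rhWnt3a became 11 to 18 without 1 library, with 11 both without vehicle replicate 1 and without vehicle replicate 2, and 26 without the 3 libraries. The 13 calls between the combination and rhWnt3a became 7 to 17 without 1 library, 27 without the 3 libraries and 20 by unadjusted p; they were 7 without rhWnt3a replicate 3 and 8 without rhWnt3a replicate 1 or OSMI replicate 1 or 2. The 20 calls against vehicle became 12 where every library had to hold at least 10 counts, and 16 to 24 without 1 library. None of the called list genes turned, but only 8 of the 17, 7 of the 13 and 10 of the 20 calls were kept under all 16 alternative fits. Some of the others were not tested under an alternative, and the rest lost their call.

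With a replicate block the 13 calls between the combination and rhWnt3a became 8, without Thbs1, Thbs3, Bmpr1b, Arid5b and Papss2. Against vehicle, Col9a3, Bmpr1b, Chst3 and Htra1 lost their calls with rhWnt3a, and Thbs3, Fgfr3, Col10a1 and Htra1 theirs with the combination. The calls of the 4 tested genes not picked on their values did not change. The shared numbers come from the titles, and whether they pair the libraries is not known. Over all tested genes the block changed 1230 calls with rhWnt3a to 809, 664 between the combination and rhWnt3a to 233, and 1986 against vehicle to 1297. DESeq2 gave 1289, no filter 1481 and the 6 libraries of the comparison 345 in place of 664. A log2 limit of 1 gave 796, 380 and 1118, leaving out 1 library 716 to 1506, 203 to 764 and 1218 to 2328, leaving out the 3 libraries 2557, 1789 and 3351, and the unadjusted p 2155, 2271 and 3186. The cause of these shifts was not tested. Depth limited Acan, Sox5, Matn3 and the treated levels of Ucma to a few reads.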
